A study of Mus musculus with 25 samples.

Results

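The genes described here are 40 mouse genes of DNA replication: origin licensing and replication fork components, enzymes of nucleotide supply, and a few regulators of entry into S phase. A list of symbols was matched to the Ensembl identifiers of the count table, and no measured value entered that match, but the list itself was drawn up with earlier results of these data known. All 40 were found among the 46078 genes of the table, and all 40 passed the filter on low counts that left 14123 genes for testing. They are described across the 8 sorted populations of the series.

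DNA is copied once per cell cycle. In G1 phase the origin recognition complex, with Cdc6 and Cdt1, loads the MCM helicase onto origins, which is called licensing. At the onset of S phase the helicase is activated by Cdc45, the GINS complex and Mcm10, and polymerases, primase, the sliding clamp PCNA and its loader RFC build the fork. Ribonucleotide reductase and thymidylate synthase supply the building blocks. Many of these genes are transcribed by E2F factors when a cell leaves G1 phase, and their transcripts are commonly low in resting lymphocytes. Group 1 innate lymphoid cells (G1-ILCs) comprise natural killer (NK) cells and type 1 innate lymphoid cells (ILC1s), lymphocytes without antigen receptors that produce interferon gamma.

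RNA was sequenced from sorted CD3- NK1.1+ NKp46+ cells of wild type C57BL/6 mice, in 25 libraries. The populations were fetal liver (FL) G1-ILCs at E18.5 of gestation, with intermediate CD49a and CD49b (4 libraries), small intestinal lamina propria (LPL) ILC1s sorted as CD27+ IL-7R+ (4) and salivary gland (SG) G1-ILCs sorted as CD49a+ CD49b+ (2). Bone marrow (BM) gave immature ILC1s, CD49a+ with low CD49b (BM iILC1s, 3), and CD49a- CD49b+ NK cells (3). Adult liver (AL) gave ILC1s with IL-7R (7R+, 3) and without it (7R-, 4), both CD49a+ with low CD49b, and CD49a- CD49b+ NK cells (2). All adult mice were 8 weeks old. The labels and the study's methods state different numbers of sorted cells per library, and neither says how many animals were pooled. The sort gates differ between organs, so that LPL ILC1s and SG G1-ILCs were not gated as the liver cells were. By the study's methods, gut and salivary gland were digested with collagenase, while fetal and adult liver were dissociated mechanically and marrow was flushed out. Organ, gate, tissue preparation and, for the fetus, age cannot be told apart in the comparisons that cross them.

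Library totals ran from 2302643 to 7995906 counts. FL G1-ILCs replicates 2 and 3 differed by little more than sampling noise, which alone gives a chi-square per degree of freedom near 1. The value for this pair was 1.18, against 3.51 to 12.4 for the other 28 of 29 pairs. The counts of replicates 2 and 3 were summed and used as 1 sample, which leaves 24 samples (of the 3 fetal values given for a gene, the second is this sum). The NK receptor gene Klrb1c averaged 980.1 CPM (counts per 1000000 of the TMM-scaled library size) in FL G1-ILCs, where 8 of 9 group 1 ILC and NK markers reached 1 CPM in the mean and Il7r, at 0.849 CPM, did not. Markers of other cells were also present. The summed level of 16 myeloid markers was 57.9 to 388 CPM in FL G1-ILCs, 233 to 1785 CPM in BM iILC1s, 926 to 1007 CPM in SG G1-ILCs, 10.5 to 200.0 CPM in BM NK cells and at most 46.5 CPM in the other groups. In FL G1-ILCs 11 of the 16 reached 1 CPM in the mean, and the highest was the neutrophil granule gene Ngp, at 16.8, 0.145 and 172 CPM. The neutrophil genes S100a8 (15.9, 0 and 40.4 CPM) and S100a9 (14.2, 0.289 and 45.9 CPM) were likewise low in the summed sample, while Mpo, Elane, Prtn3, Ctsg and Cd14 were under 1 CPM in the mean. The other markers that reached 1 CPM were Lyz2, C1qa, C1qb, C1qc, Csf1r, Adgre1, Cd68 and Camp. The myeloid marker sum of the summed sample was still at least 57.9 CPM.

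The regulatory sequence of these genes is shown for 7 promoters, so that the letters named below can be seen. RefSeq (GRCm38.p6) promoters, from 250 bases before to 50 bases after the transcription start, had an entry for 32 of the 40 genes. Only the first entry of each gene was used, and Mcm7, Fen1 and Lig1 had 2 or more. The Cdc6 window lies wholly after the gene start given for Cdc6 below, base 98907801. The sequences are those of the 3 genes with an entry that differed most between FL G1-ILCs and AL 7R- ILC1s (Rrm2, Cdc6 and Mcm10), the 3 that differed least (Gins3, Cdt1 and Rpa2), and Mcm6, which was added after its matches were seen because it has the most E2F letters of the 7. Each reads 5′ to 3′ along the gene, and capitals mark matches to E2F letters or to CCAAT and its reverse complement ATTGG.
Rrm2 (chr12:24708004-24708303, plus strand): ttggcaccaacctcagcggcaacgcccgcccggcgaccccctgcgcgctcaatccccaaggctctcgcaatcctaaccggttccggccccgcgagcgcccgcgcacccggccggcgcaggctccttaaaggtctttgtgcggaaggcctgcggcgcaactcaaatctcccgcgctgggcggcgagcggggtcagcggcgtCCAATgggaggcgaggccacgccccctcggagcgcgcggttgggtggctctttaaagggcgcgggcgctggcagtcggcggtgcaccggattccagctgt
Cdc6 (chr11:98907901-98908200, plus strand): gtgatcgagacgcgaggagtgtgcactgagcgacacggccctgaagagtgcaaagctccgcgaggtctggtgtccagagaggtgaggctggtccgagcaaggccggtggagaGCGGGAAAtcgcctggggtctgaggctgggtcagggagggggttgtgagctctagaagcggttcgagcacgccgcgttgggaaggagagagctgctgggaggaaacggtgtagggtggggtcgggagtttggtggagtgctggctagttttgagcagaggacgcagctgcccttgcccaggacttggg
Mcm10 (chr2:5012742-5013041, minus strand): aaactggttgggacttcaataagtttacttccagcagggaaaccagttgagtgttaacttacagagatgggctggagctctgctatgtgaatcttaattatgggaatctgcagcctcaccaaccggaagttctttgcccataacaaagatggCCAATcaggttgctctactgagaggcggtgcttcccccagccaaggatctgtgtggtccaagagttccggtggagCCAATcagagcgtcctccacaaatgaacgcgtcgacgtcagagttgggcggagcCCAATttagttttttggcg
Gins3 (chr8:95633309-95633608, plus strand): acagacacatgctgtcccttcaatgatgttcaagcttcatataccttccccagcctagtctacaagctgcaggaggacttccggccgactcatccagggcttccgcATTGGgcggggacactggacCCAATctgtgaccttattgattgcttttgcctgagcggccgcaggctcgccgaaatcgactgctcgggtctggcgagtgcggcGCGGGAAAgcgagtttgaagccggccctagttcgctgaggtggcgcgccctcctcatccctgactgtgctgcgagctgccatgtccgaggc
Cdt1 (chr8:122567765-122568064, plus strand): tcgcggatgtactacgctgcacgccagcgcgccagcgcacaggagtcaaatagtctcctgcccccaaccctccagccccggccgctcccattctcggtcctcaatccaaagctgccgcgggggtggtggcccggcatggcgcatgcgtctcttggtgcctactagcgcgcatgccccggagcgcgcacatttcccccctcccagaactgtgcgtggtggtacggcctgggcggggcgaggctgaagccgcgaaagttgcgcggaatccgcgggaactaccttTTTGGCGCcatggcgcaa
Rpa2 (chr4:132768110-132768409, plus strand): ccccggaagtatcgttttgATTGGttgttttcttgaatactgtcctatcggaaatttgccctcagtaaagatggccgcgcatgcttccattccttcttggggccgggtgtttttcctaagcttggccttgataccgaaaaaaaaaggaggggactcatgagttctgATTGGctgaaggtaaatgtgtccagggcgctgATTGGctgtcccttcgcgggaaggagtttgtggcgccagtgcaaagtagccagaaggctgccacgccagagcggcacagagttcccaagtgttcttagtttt
Mcm6 (chr1:128359656-128359955, minus strand): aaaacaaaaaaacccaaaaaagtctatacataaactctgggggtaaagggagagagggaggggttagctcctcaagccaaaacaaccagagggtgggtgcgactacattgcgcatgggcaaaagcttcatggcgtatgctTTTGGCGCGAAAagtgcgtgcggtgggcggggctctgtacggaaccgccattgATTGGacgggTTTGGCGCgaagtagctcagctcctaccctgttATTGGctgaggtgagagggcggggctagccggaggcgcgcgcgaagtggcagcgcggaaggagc

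The E2F letters searched, on both strands, were TTTCCCGC, TTTCGCGC, TTTGCCGC and TTTGGCGC. They occurred in 12 of the 32 promoters (37.5%), against 2.32% of 27025 promoters of all genes in the same table. In the Mcm6 promoter 3 matches began at bases -110, -106 and -47 from the start, and those at -110 and -106 overlap by some of their letters. CCAAT, the letters bound by NF-Y, occurred in 18 of 32 (56.2%), against 37.9% of all promoters. The letters TTTGAA or TTCGAA, which are those of the cell cycle homology region found in promoters of mitotic genes, occurred in 6 of 32 (18.8%), against 19.4% of all. Of 10 promoters of genes of mitosis with an entry, 1 held E2F letters, 9 held CCAAT and 8 held TTTGAA or TTCGAA. The promoters of the 32 genes also had a higher GC content than all promoters (medians 58.8% and 52.7%), and the shares were not matched for it. A match in this window is a description of the letters and not a measured binding site.

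All 40 genes had their highest mean level in FL G1-ILCs. For 34 of them the next highest group was BM NK cells, for 3 it was LPL ILC1s, for 2 AL NK cells and for 1 AL 7R- ILC1s. In 38 of 40 genes each of the 3 samples of FL G1-ILCs was above each of the 21 adult samples. The 2 exceptions were Pcna and E2f1. The shares of all tested genes with the highest mean in FL G1-ILCs, or with every fetal sample above every adult one, were not computed. The lowest group varied, and was AL 7R- ILC1s for 14 genes, SG G1-ILCs for 9, LPL ILC1s for 7, BM iILC1s for 5, AL 7R+ ILC1s for 4 and AL NK cells for 1. In these bulk samples fewer cells of a type and less RNA per cell cannot be told apart.

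**Figure D1:**
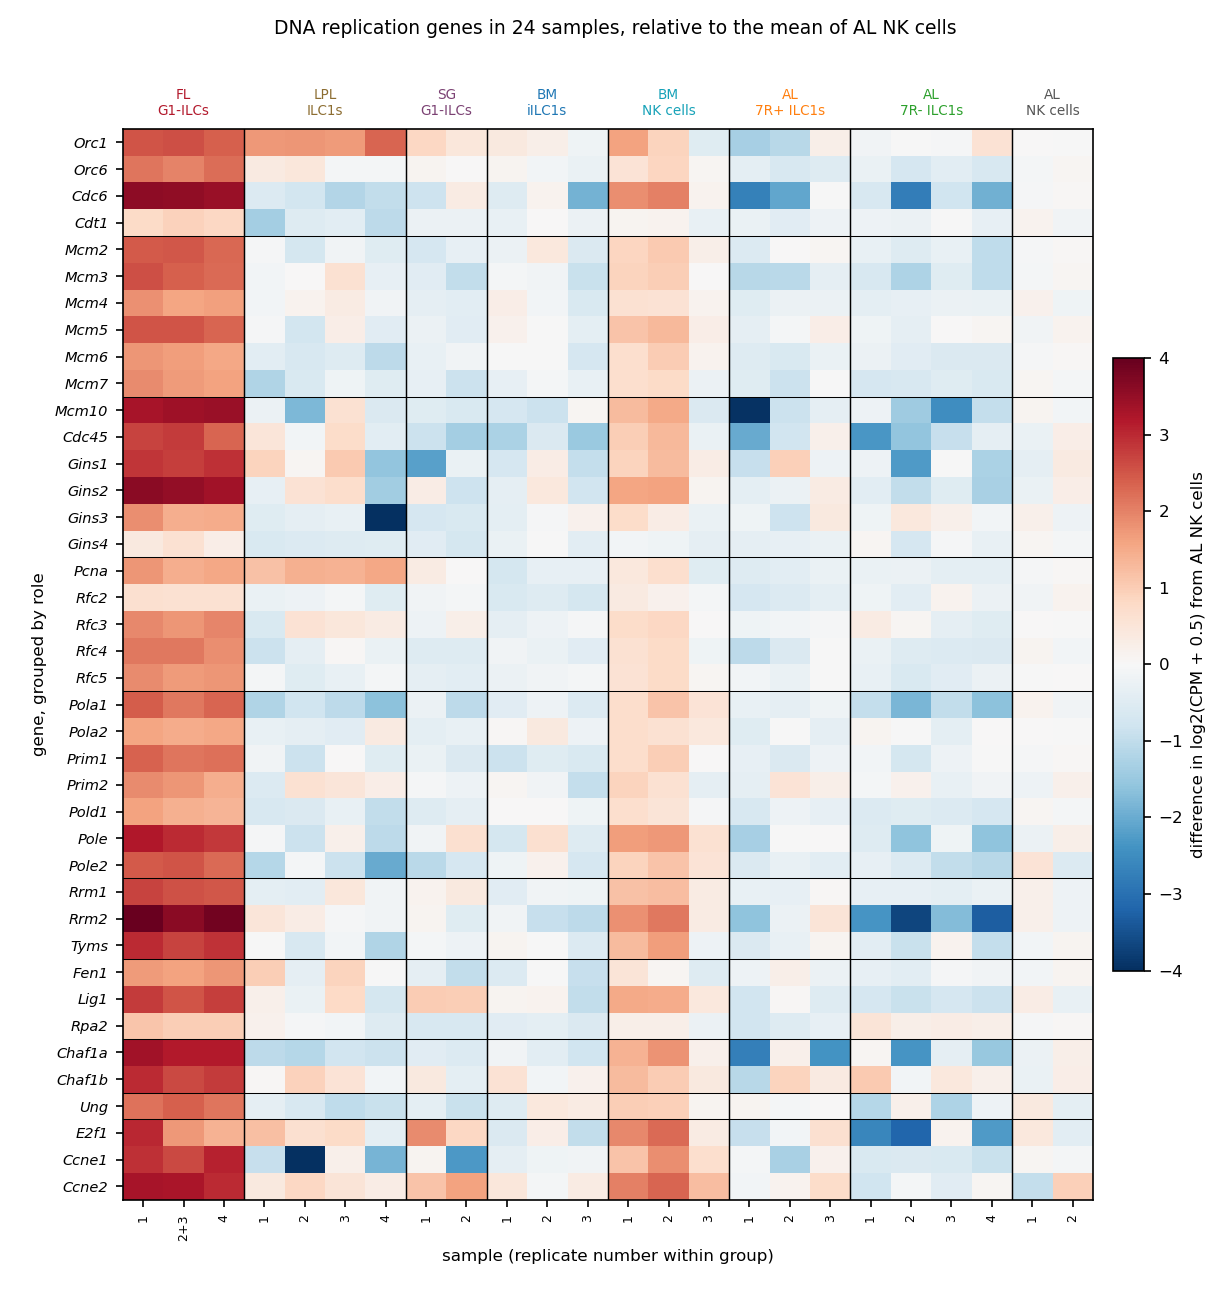
Each row is a replication gene, grouped by role, and each column a sample. The colour is the difference in log2(CPM + 0.5) from the mean of AL NK cells, drawn from -4 to 4. The 3 FL G1-ILCs columns are red in all 40 rows, BM NK replicates 1 and 2 are red in most, and Orc1 and Pcna are red in all 4 LPL ILC1s columns.

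Summed over the 40 genes, a measure that weights the abundant ones, the level was 7919 to 8949 CPM in FL G1-ILCs, 1648 to 2176 in LPL ILC1s, 1702 to 1769 in SG G1-ILCs, 1452 to 1900 in BM iILC1s, 2119 to 3840 in BM NK cells, 1366 to 1842 in AL 7R+ ILC1s, 1448 to 1673 in AL 7R- ILC1s and 2029 to 2059 in AL NK cells. The FL G1-ILCs samples and BM NK replicates 1 and 2, at 3518 and 3840 CPM, lay above the other groups, which ran from 1366 to 2176 CPM. BM NK replicate 3, at 2119 CPM, lay within that range. That library also had a myeloid marker sum of 200.0 CPM, against 10.5 and 24.6 CPM in the other BM NK libraries, and the part of these cells in its lower replication level was not tested.

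**Figure D2:**
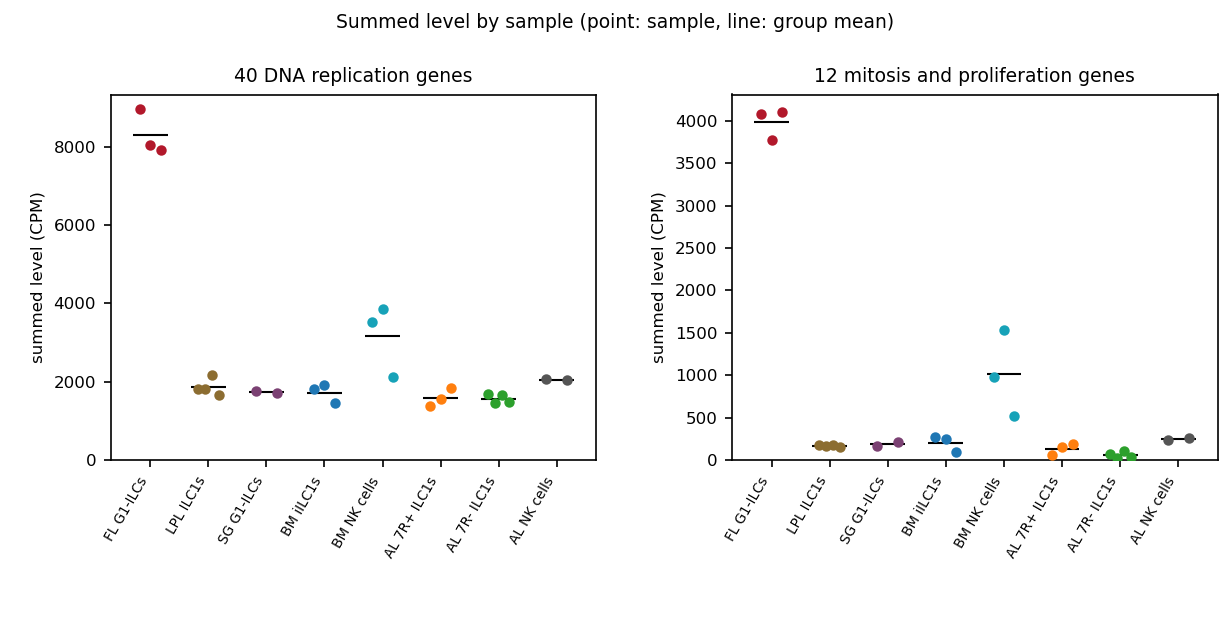
Summed level in CPM of the 40 replication genes (left) and of 12 mitosis and proliferation genes (right); points are samples and lines are group means. The 3 FL G1-ILCs samples lie at 7919 to 8949 CPM on the left and at 3769 to 4107 CPM on the right, above all adult samples, and BM NK cells come next.

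FL G1-ILCs had higher levels than AL 7R- ILC1s for all 40 genes (edgeR's quasi-likelihood test, adjusted p under 0.05), where 42.6% of all 14123 genes were called, 22.4% higher and 20.1% lower. The log2 fold changes ran from 0.65 for Gins4 to 6.40 for Rrm2, with a median of 2.60, and the median over all genes tested was -0.06. Values after ± beside a log2 fold change are standard errors of the fit. Against AL NK cells 39 of 40 were higher (36.4% of all genes were called, 19.8% higher and 16.6% lower), with a median of 2.27, and Gins4 did not pass at 0.43 ± 0.18 (adjusted p = 0.0669). Against BM NK cells, the adult group with the most replication transcripts, 39 of 40 were higher (33.7% of all genes called, 19.4% higher and 14.3% lower), with a median of 1.55. E2f1 did not pass there, at 0.52 ± 0.64 (adjusted p = 0.578). These 3 comparisons use the same FL G1-ILCs samples and are not independent of each other. Leaving out each sample in turn kept all 40 calls against AL 7R- ILC1s, while the count against AL NK cells was 34 without AL NK replicate 1 and that against BM NK cells 35 without BM NK replicate 3. The myeloid marker sum was 57.9 to 388 CPM in FL G1-ILCs, against 10.5 to 200.0 CPM in BM NK cells, 13.4 to 46.5 CPM in AL 7R- ILC1s and 5.03 to 8.30 CPM in AL NK cells. Of 13 erythroid markers 12 reached 1 CPM in FL G1-ILCs, with a summed level of 563 to 745 CPM of which Car2 made up 513 to 539 CPM, against 6 markers and 200.3 to 657 CPM in AL 7R- ILC1s. Car2 was also at 3234 CPM in LPL ILC1s, where 2 of the 13 markers reached 1 CPM. The part of myeloid or erythroid cells in these differences was not tested.

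**Figure D3:**
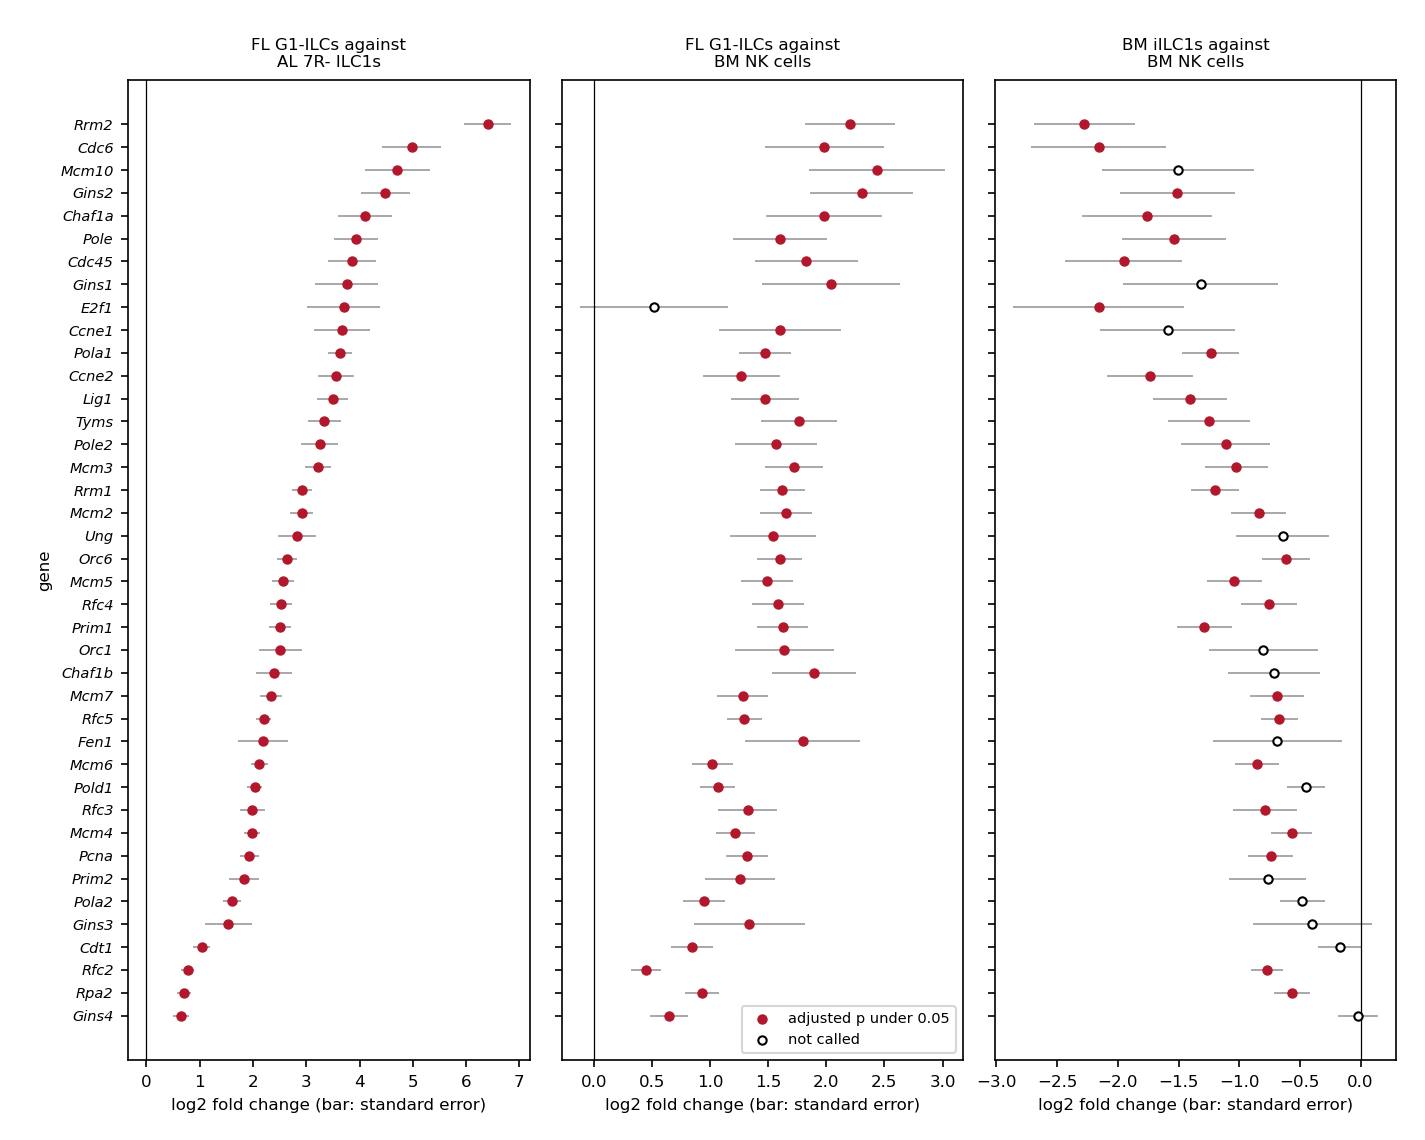
Log2 fold changes of the 40 genes in 3 comparisons, ordered by the left panel; bars are standard errors, filled points have an adjusted p under 0.05 and open points were not called. All 40 points are filled on the left, E2f1 is the open point in the middle panel, and 27 of 40 points on the right are filled and lie below 0.

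Among the licensing genes Cdc6 separated the groups the most. Cdc6 (chr11:98907801-98923940, plus strand, GRCm38), the loader that brings the MCM helicase to origins, was at 136, 131 and 123 CPM in the 3 FL G1-ILCs samples, against 1.24, 2.21 and 10.7 CPM in AL 7R+ ILC1s, 6.71, 1.18, 6.08 and 2.51 CPM in AL 7R- ILC1s and 10.5 and 11.3 CPM in AL NK cells. It had 7.29, 6.31, 4.57 and 5.26 CPM in LPL ILC1s, 5.92 and 13.9 CPM in SG G1-ILCs, 7.46, 12 and 2.60 CPM in BM iILC1s and 40.7, 45.5 and 12.1 CPM in BM NK cells. No adult sample reached the lowest fetal one, and the highest adult samples were BM NK replicates 1 and 2. The log2 fold change of FL G1-ILCs was 4.98 ± 0.55 (adjusted p = 3.26e-08) against AL 7R- ILC1s and 1.98 ± 0.51 (adjusted p = 0.00332) against BM NK cells.

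Orc1 (chr4:108579423-108614833, plus strand), the large subunit of the origin recognition complex, did not follow the order of Cdc6. It was at 24.5, 26 and 22.4 CPM in FL G1-ILCs, 14.3, 14.3, 13.7 and 21.6 CPM in LPL ILC1s, 13, 7.61 and 2.63 CPM in BM NK cells and 1.24, 1.55 and 4.72 CPM in AL 7R+ ILC1s. LPL ILC1s thus came next to the fetal cells, and LPL replicate 4, at 21.6 CPM, was just below the lowest fetal sample. Orc6 (chr8:85299632-85308278, plus strand), the smallest subunit, averaged 118 ± 10.1 CPM in FL G1-ILCs (SD, n = 3), against 38.8 ± 10.7 CPM in BM NK cells (n = 3) and 19 ± 2.73 CPM in AL 7R- ILC1s (n = 4). Cdt1 (chr8:122568015-122573554, plus strand), the partner of Cdc6 in helicase loading, was at 108 to 122 CPM in FL G1-ILCs, against 24.8 to 71.3 CPM over all adult samples. Its log2 fold change of FL G1-ILCs against AL 7R- ILC1s was 1.04 ± 0.17 (adjusted p = 1.20e-05), the smallest of the 4 licensing genes.

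The MCM genes encode the ring-shaped helicase that opens DNA at the fork. All 6 were higher in FL G1-ILCs than in each of AL 7R- ILC1s (log2 fold changes 1.98 to 3.23), AL NK cells (1.67 to 2.46) and BM NK cells (1.02 to 1.72). Mcm2 (chr6:88883474-88898780, minus strand) was at 502, 516 and 455 CPM in FL G1-ILCs, against 62.3, 92.9 and 97.3 CPM in AL 7R+ ILC1s, 74.8, 64.4, 75.5 and 45.7 CPM in AL 7R- ILC1s and 90 and 94.5 CPM in AL NK cells. Outside the liver it was at 88.9, 56.2, 82.8 and 66.2 CPM in LPL ILC1s, 57.8 and 73 CPM in SG G1-ILCs, 78.3, 122 and 61.3 CPM in BM iILC1s and 168, 192 and 109 CPM in BM NK cells. The lowest fetal sample was well above the highest adult one, BM NK replicate 2. The fold change was 2.91 ± 0.21 (adjusted p = 2.54e-11) on the log2 scale against AL 7R- ILC1s.

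Mcm5 (chr8:75109569-75128439, plus strand) was at 486, 490.1 and 424 CPM in FL G1-ILCs, against 66.2, 80.6 and 102 CPM in AL 7R+ ILC1s, 74.3, 66.2, 86.2 and 88.4 CPM in AL 7R- ILC1s and 76.8 and 93 CPM in AL NK cells. In the other organs it was at 82.5, 50.5, 102 and 61.8 CPM in LPL ILC1s, 71.9 and 62.2 CPM in SG G1-ILCs, 95.4, 83.5 and 63.7 CPM in BM iILC1s and 187, 211 and 101 CPM in BM NK cells. The adult groups other than BM NK cells overlapped almost fully, between 50.5 and 102 CPM, and BM NK replicate 3 lay at the top of that range. Mcm6, whose promoter is shown above, was at 947, 874 and 814 CPM in FL G1-ILCs, against 440.3, 558 and 302 CPM in BM NK cells and 235, 203, 187 and 183 CPM in AL 7R- ILC1s. Summed over the 6 genes, the level was 2973 to 3479 CPM in FL G1-ILCs, against 868 to 1566 CPM in BM NK cells, 547 to 736 CPM in AL 7R+ ILC1s, 560.1 to 627 CPM in AL 7R- ILC1s and 810.5 to 812 CPM in AL NK cells. Mcm7 (chr5:138164583-138172422, minus strand) also holds the microRNA genes Mir25 and Mir93 in its transcribed region.

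Helicase activation held both large and small differences. Cdc45 (chr16:18780447-18811987, minus strand), which joins MCM and GINS in the active helicase, was at 88.7, 93.5 and 67.8 CPM in FL G1-ILCs, against 2.89, 7.50 and 15.3 CPM in AL 7R+ ILC1s, 2.24, 4.05, 6.65 and 10.1 CPM in AL 7R- ILC1s and 10.8 and 15.8 CPM in AL NK cells. It was at 18.4, 12, 22.1 and 9.70 CPM in LPL ILC1s, 7.05 and 4.80 CPM in SG G1-ILCs, 5.10, 8.64 and 4.39 CPM in BM iILC1s and 26.7, 32.6 and 10.9 CPM in BM NK cells. BM NK cells and LPL ILC1s overlapped, and both were below all fetal samples. The log2 fold change of FL G1-ILCs was 3.86 ± 0.45 (adjusted p = 7.84e-08) against AL 7R- ILC1s.

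Mcm10 (chr2:4989714-5012791, minus strand), a factor of helicase activation that is not part of the MCM ring, was at 75.2, 81 and 84.5 CPM in FL G1-ILCs, against 0, 3.75 and 5.53 CPM in AL 7R+ ILC1s, 6.21, 2.36, 0.868 and 3.52 CPM in AL 7R- ILC1s and 7.76 and 6.71 CPM in AL NK cells. The other groups had 6.12, 1.72, 11.2 and 4.71 CPM in LPL ILC1s, 5.08 and 4.55 CPM in SG G1-ILCs, 4.32, 3.73 and 7.59 CPM in BM iILC1s and 18.2, 21.4 and 4.65 CPM in BM NK cells. BM NK replicates 1 and 2 were above all other adult samples, and BM NK replicate 3 was among the rest. Its log2 fold change, 4.71 ± 0.61 (adjusted p = 4.69e-07) for FL G1-ILCs against AL 7R- ILC1s, was the third largest of the 40.

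The GINS subunits differed among themselves. Gins1 and Gins2 had log2 fold changes of 3.75 and 4.49 for FL G1-ILCs against AL 7R- ILC1s, Gins3 had 1.53 and Gins4 had 0.65, the smallest of all 40. Gins4 (chr8:23226616-23237659, minus strand) was at 84, 98.1 and 76.9 CPM in FL G1-ILCs, against 49.7, 50.5 and 53.6 CPM in AL 7R+ ILC1s, 67.8, 39.6, 61.3 and 51.5 CPM in AL 7R- ILC1s and 67.5 and 60.4 CPM in AL NK cells. Elsewhere Gins4 was at 41.4, 43.6, 44.7 and 45.4 CPM in LPL ILC1s, 46.8 and 39.2 CPM in SG G1-ILCs, 53.4, 62.9 and 47.3 CPM in BM iILC1s and 58.7, 57 and 50 CPM in BM NK cells. Its fetal samples were still the highest, but the adult range of 39.2 to 67.8 CPM came close to them, and BM NK cells were not above the other adult groups. Of the exonic length of Gins2 67.3% overlaps Gse1 on the opposite strand, and the use of strand in counting is not stated, so that the source of the Gins2 reads is uncertain.

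Pcna was high in the gut as well as in the fetus. Pcna (chr2:132249162-132253314, minus strand), which holds polymerases on DNA, was at 303, 244 and 259 CPM in FL G1-ILCs, 197, 237, 231 and 256 CPM in LPL ILC1s, 112 and 88.4 CPM in SG G1-ILCs and 53.4, 69.5 and 70.7 CPM in BM iILC1s. It was at 119, 141 and 62.3 CPM in BM NK cells, 60.9, 65.8 and 73.5 CPM in AL 7R+ ILC1s, 73.6, 74, 66.4 and 67.6 CPM in AL 7R- ILC1s and 85.5 and 90.4 CPM in AL NK cells. The fetal and gut samples overlapped, with LPL replicate 4 above the lowest fetal sample, and every other sample lay at or below 141 CPM; fetal and gut cells were not compared by a test. Pcna has processed pseudogenes (Pcna-ps1 and Pcna-ps2), and the handling of reads that map to several places is not stated.

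Rfc2 (chr5:134581366-134601805, plus strand), a subunit of the clamp loader, was at 266, 262 and 264 CPM in FL G1-ILCs, against 108, 118 and 133 CPM in AL 7R+ ILC1s, 154, 129, 189 and 146 CPM in AL 7R- ILC1s and 158 and 188 CPM in AL NK cells. It was at 142, 150.3, 165 and 124 CPM in LPL ILC1s, 155 and 163 CPM in SG G1-ILCs, 113, 121 and 106 CPM in BM iILC1s and 222, 194 and 163 CPM in BM NK cells. The fetal samples agreed closely, and the adult samples ran from 106 to 222 CPM, all below them. Rfc2 passed in all 3 fetal comparisons, at 0.77, 0.61 and 0.45 on the log2 scale, but not against AL NK cells without AL NK replicate 1 (0.49, adjusted p = 0.0651) nor against BM NK cells without BM NK replicate 3 (0.34, adjusted p = 0.0708). Of its exonic length 15.1% overlaps Lat2. Rfc3, Rfc4 and Rfc5 had log2 fold changes of 1.99, 2.53 and 2.20 for FL G1-ILCs against AL 7R- ILC1s.

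The polymerase and primase genes were all higher in FL G1-ILCs in each of the 3 comparisons, from 1.6 for Pola2 to 3.94 for Pole against AL 7R- ILC1s. Pola1 (chrX:93304767-93632155, minus strand), the catalytic subunit of the polymerase that starts each new strand, was at 194, 156 and 181 CPM in FL G1-ILCs, against 28.9, 27.8 and 31.7 CPM in AL 7R+ ILC1s, 18.1, 9.78, 17.8 and 11.3 CPM in AL 7R- ILC1s and 39.3 and 32.8 CPM in AL NK cells. It was at 15.2, 20.6, 17.3 and 11.1 CPM in LPL ILC1s, 30.7 and 17.2 CPM in SG G1-ILCs, 25.9, 30.8 and 24.6 CPM in BM iILC1s and 58.5, 80.4 and 52.6 CPM in BM NK cells. The 3 adult liver groups did not overlap: AL 7R- ILC1s were lowest, AL 7R+ ILC1s next and AL NK cells highest. Primase subunits Prim1 and Prim2 had 2.51 and 1.83. Pole and Pole2, of the leading strand polymerase, had 3.94 and 3.25, and Pold1, of the polymerase of the lagging strand, had 2.03, again for FL G1-ILCs against AL 7R- ILC1s.

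Nucleotide supply held the largest difference. Rrm2 (chr12:24708241-24714146, plus strand), the subunit of ribonucleotide reductase that is made in S phase, was at 722, 569 and 677 CPM in FL G1-ILCs, against 14.9, 39.1 and 67.1 CPM in AL 7R+ ILC1s, 8.70, 3.20, 13.6 and 4.27 CPM in AL 7R- ILC1s and 53.6 and 40 CPM in AL NK cells. The remaining groups had 65.3, 57.1, 44.7 and 42.1 CPM in LPL ILC1s, 49.6 and 33.1 CPM in SG G1-ILCs, 41.6, 24.2 and 22.2 CPM in BM iILC1s and 168, 200.1 and 57.9 CPM in BM NK cells. AL 7R- ILC1s were below every other sample, with no overlap. The log2 fold change of FL G1-ILCs was 6.40 ± 0.45 (adjusted p = 1.10e-11) against AL 7R- ILC1s, 3.80 ± 0.50 (adjusted p = 1.09e-06) against AL NK cells and 2.21 ± 0.39 (adjusted p = 6.28e-05) against BM NK cells.

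Rrm1 (chr7:102441695-102469771, plus strand), the partner subunit, averaged 559 ± 44.4 CPM in FL G1-ILCs (SD, n = 3), against 182 ± 56.7 CPM in BM NK cells (n = 3) and 74.1 ± 2.67 CPM in AL 7R- ILC1s (n = 4). The samples of AL 7R+ ILC1s, at 74.2 to 97.2 CPM, overlapped those of AL 7R- ILC1s, at 71.2 to 77.6 CPM, unlike for Rrm2. Tyms (chr5:30058202-30073617, minus strand), thymidylate synthase, was at 238, 198 and 225 CPM in FL G1-ILCs, against 19.8, 24.1 and 32.2 CPM in AL 7R+ ILC1s, 21.9, 15.8, 33 and 15.1 CPM in AL 7R- ILC1s and 27.6 and 31.9 CPM in AL NK cells. Tyms had 29.2, 18.6, 27.4 and 12.5 CPM in LPL ILC1s, 28.2 and 25.5 CPM in SG G1-ILCs, 32.4, 29.3 and 20 CPM in BM iILC1s and 71.7, 96.1 and 25.7 CPM in BM NK cells. All adult groups other than BM NK cells overlapped. Its log2 fold change was 3.34 ± 0.32 (adjusted p = 2.74e-09) for FL G1-ILCs against AL 7R- ILC1s; a pseudogene, Tyms-ps, makes its reads uncertain in part.

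**Figure D4:**
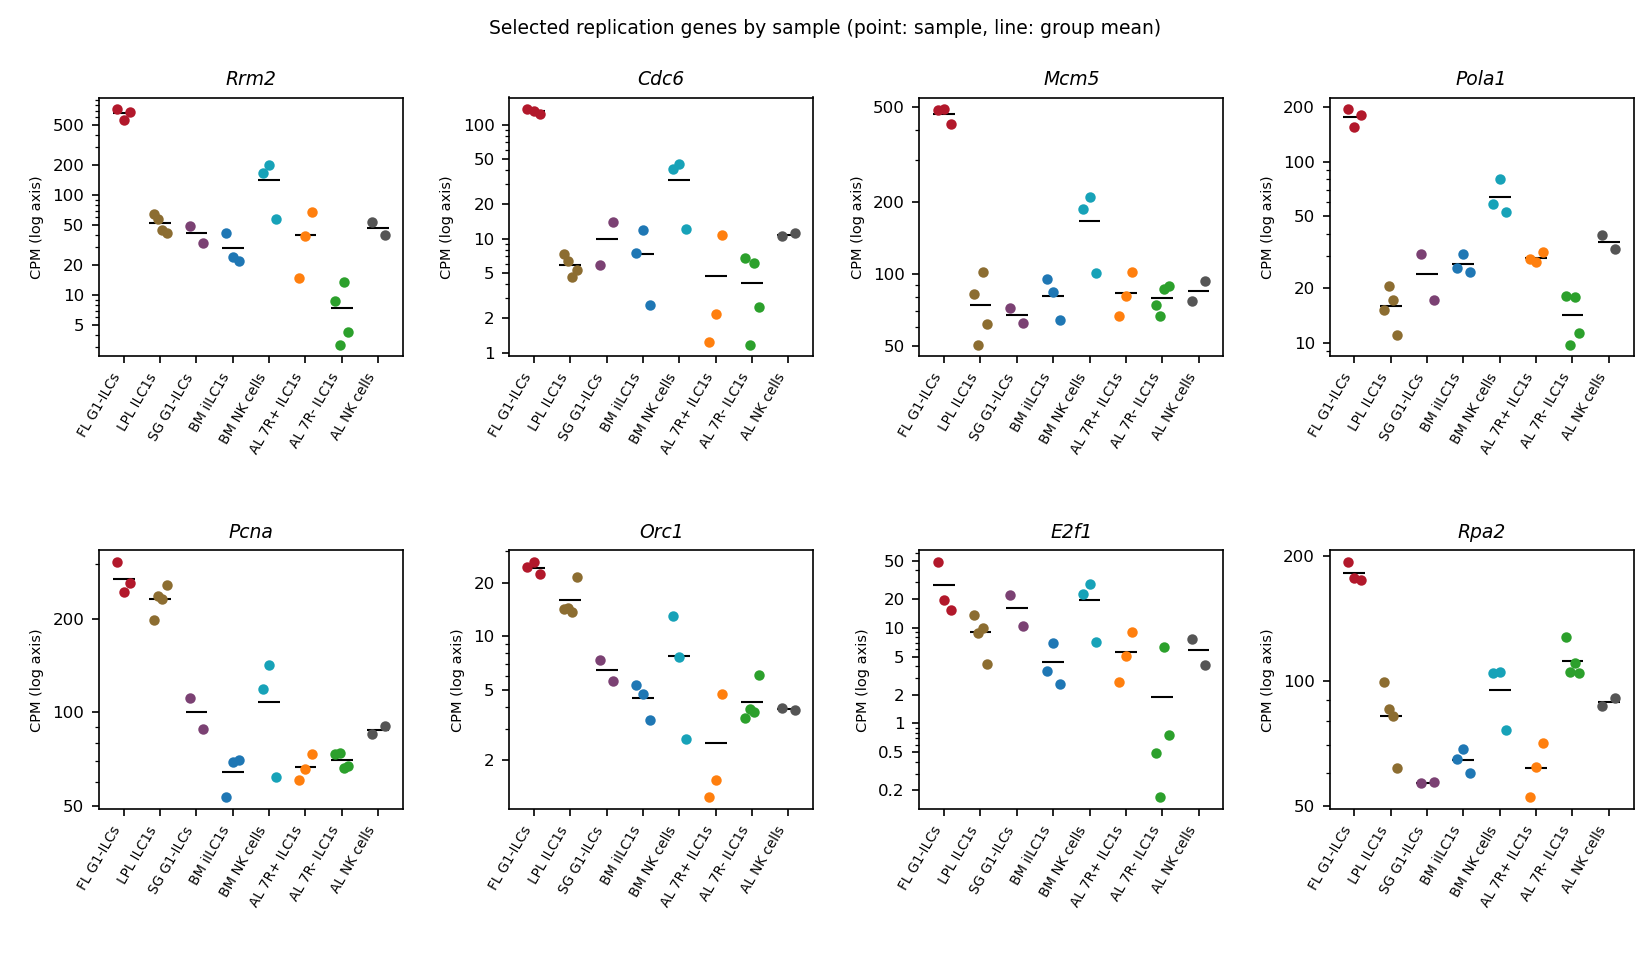
Level in CPM, on a log axis, of 8 of the genes in each sample (points) with group means (lines). Rrm2 and Pola1 have their lowest mean in AL 7R- ILC1s, Pcna and Orc1 are high in LPL ILC1s, and Rpa2 is lower in AL 7R+ ILC1s (52.4 to 70.8 CPM) than in AL 7R- ILC1s (105 to 128 CPM).

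Lig1 (chr7:13277283-13311433, plus strand), the ligase that joins lagging strand fragments, was at 280.5, 229 and 270.1 CPM in FL G1-ILCs, against 22.9, 40.8 and 27.6 CPM in AL 7R+ ILC1s, 24.6, 21.2, 24.6 and 21.4 CPM in AL 7R- ILC1s and 48.3 and 32.4 CPM in AL NK cells. Lig1 was at 45.5, 33, 69.4 and 24.1 CPM in LPL ILC1s, 80.4 and 78.8 CPM in SG G1-ILCs, 42.4, 43.4 and 19.8 CPM in BM iILC1s and 114, 113 and 53.4 CPM in BM NK cells. SG G1-ILCs were above all liver samples of adults, and the fetal samples were above all others, with a log2 fold change of 3.50 ± 0.29 (adjusted p = 2.89e-10) against AL 7R- ILC1s. Rpa2 (chr4:132768332-132778752, plus strand), a subunit of the single-strand binding complex, was at 194, 177 and 175 CPM in FL G1-ILCs, against 52.4, 62 and 70.8 CPM in AL 7R+ ILC1s, 128, 105, 111 and 105 CPM in AL 7R- ILC1s and 87.1 and 91.1 CPM in AL NK cells. It was at 99.4, 85.8, 82.6 and 61.8 CPM in LPL ILC1s, 56.7 and 57.1 CPM in SG G1-ILCs, 64.8, 68.6 and 60.1 CPM in BM iILC1s and 105, 105 and 76.1 CPM in BM NK cells. This is the member for which AL 7R- ILC1s had the highest adult mean. Fen1, the flap endonuclease, was counted at only 3 to 49 reads per sample, and 78.8% of its exonic length is covered by the antisense gene Gm10143, so that its values are uncertain.

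Chaf1a and Chaf1b encode subunits of the chromatin assembly factor, which places histones behind the fork. Chaf1a averaged 122 ± 9.97 CPM in FL G1-ILCs (SD, n = 3), against 31 ± 15.2 CPM in BM NK cells (n = 3) and 7.19 ± 5.10 CPM in AL 7R- ILC1s (n = 4), and Chaf1b averaged 87.6 ± 10.9 CPM in FL G1-ILCs, against 23.5 ± 6.88 CPM in BM NK cells and 16.7 ± 6.17 CPM in AL 7R- ILC1s. Of the exonic length of Chaf1a 52.5% overlaps Ubxn6 on the opposite strand. Ung (chr5:114130386-114139323, plus strand), the glycosylase that removes uracil from DNA, was at 29, 33.9 and 28.7 CPM in FL G1-ILCs, against 6.60, 5.74 and 6.10 CPM in AL 7R+ ILC1s, 2.49, 7.08, 2.31 and 5.28 CPM in AL 7R- ILC1s and 8.12 and 4.56 CPM in AL NK cells. Ung stood at 4.67, 3.73, 2.80 and 3.05 CPM in LPL ILC1s, 4.51 and 3.03 CPM in SG G1-ILCs, 4.12, 8.25 and 7.79 CPM in BM iILC1s and 12.5, 12.2 and 6.68 CPM in BM NK cells. Its fetal samples were above all adult ones, with a log2 fold change of 2.82 ± 0.36 (adjusted p = 3.98e-07) against AL 7R- ILC1s, and the adult samples ran from 2.31 to 12.5 CPM with BM NK cells highest in the mean.

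Of the 3 regulators of S phase entry, E2f1 varied the most among the fetal samples. E2f1 (chr2:154559407-154569892, minus strand), a transcription factor of replication genes, was at 48.3, 19.7 and 15.4 CPM in FL G1-ILCs, against 2.68, 5.08 and 8.98 CPM in AL 7R+ ILC1s, 0.497, 0.169, 6.22 and 0.754 CPM in AL 7R- ILC1s and 7.58 and 4.08 CPM in AL NK cells. It was at 13.4, 8.89, 9.91 and 4.16 CPM in LPL ILC1s, 22 and 10.4 CPM in SG G1-ILCs, 3.53, 6.87 and 2.60 CPM in BM iILC1s and 22.5, 28.5 and 7.08 CPM in BM NK cells. FL replicate 1 was the highest sample, the other fetal samples lay among BM NK cells and SG G1-ILCs, and AL 7R- ILC1s replicates 1, 2 and 4 had 2, 1 and 3 reads. Its log2 fold change was 3.70 ± 0.68 (adjusted p = 7.16e-05) against AL 7R- ILC1s and 2.23 ± 0.80 (adjusted p = 0.0312) against AL NK cells. The call against AL NK cells was lost without FL replicate 1 (1.58, adjusted p = 0.159) and without either AL NK library (2.77, adjusted p = 0.0848, and 1.87, adjusted p = 0.205).

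Ccne1 (chr7:38097984-38107534, minus strand), a cyclin that activates CDK2 at the start of S phase, was at 74.5, 61.1 and 83.5 CPM in FL G1-ILCs, against 8.87, 3.53 and 10.6 CPM in AL 7R+ ILC1s, 5.96, 6.07, 5.93 and 4.77 CPM in AL 7R- ILC1s and 9.92 and 8.87 CPM in AL NK cells. Ccne1 had 4.67, 0, 10.9 and 2.22 CPM in LPL ILC1s, 10.2 and 1.52 CPM in SG G1-ILCs, 7.26, 8.25 and 8.39 CPM in BM iILC1s and 21.2, 35.4 and 15.4 CPM in BM NK cells. All BM NK samples were above all other adult samples. Against BM NK cells the log2 fold change of FL G1-ILCs was 1.6 ± 0.52 (adjusted p = 0.0186), a call lost without BM NK replicate 1 (1.52, adjusted p = 0.0691), BM NK replicate 3 (1.37, adjusted p = 0.0924) or FL replicate 4 (1.50, adjusted p = 0.0618).

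Ccne2 (chr4:11191351-11204779, plus strand), the related cyclin, was at 84.8, 81.8 and 68.2 CPM in FL G1-ILCs, against 7.43, 9.05 and 13.9 CPM in AL 7R+ ILC1s, 4.47, 7.59, 5.79 and 8.54 CPM in AL 7R- ILC1s and 3.97 and 16.1 CPM in AL NK cells. Ccne2 had 10.8, 14.9, 11.7 and 9.97 CPM in LPL ILC1s, 18.6 and 26 CPM in SG G1-ILCs, 11.2, 7.66 and 10.4 CPM in BM iILC1s and 34.5, 43 and 19.8 CPM in BM NK cells. BM NK cells were high here too, and SG G1-ILCs overlapped them. The log2 fold change of FL G1-ILCs was 3.57 ± 0.34 (adjusted p = 2.63e-09) against AL 7R- ILC1s, and 17.4% of the exonic length overlaps Ints8.

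Within bone marrow, BM iILC1s had lower levels of replication genes than BM NK cells. All 40 log2 fold changes were below 0, with a median of -0.85, and 27 were called lower, where 12.1% of all genes were called, 5.55% lower and 6.55% higher. All 6 MCM genes, all 5 clamp and loader genes and all 3 genes of nucleotide supply were among the 27, led by Rrm2 at -2.28 ± 0.42 (adjusted p = 0.000303), Cdc6 at -2.16 ± 0.56 (adjusted p = 0.00896) and E2f1 at -2.16 ± 0.70 (adjusted p = 0.0443). Gins4, Cdt1 and Gins3 had the smallest values, at -0.02, -0.17 and -0.40, and did not pass. The count depended on single libraries: it was 9 without BM NK replicate 2, 12 without BM iILC1s replicate 3, 14 without BM NK replicate 1, 22 without BM iILC1s replicate 2, whose myeloid marker sum was 1785 CPM, and 31 without BM NK replicate 3, the library with few replication transcripts. Over all genes, calls in either direction were 1166, 1383, 1260, 1356 and 1630 in these fits, in that order, against 1709 with all samples. The 9 genes called whichever sample was left out were Ccne2, Lig1, Mcm5, Mcm6, Pola1, Prim1, Rfc2, Rrm1 and Rrm2. Cdc6 was among those lost, with an adjusted p of at most 0.0626, and E2f1 too, at up to 0.198. The myeloid marker sum was 258, 1785 and 233 CPM in the 3 BM iILC1s libraries, against 10.5, 24.6 and 200.0 CPM in BM NK cells, and its part in the difference was not tested.

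BM NK cells had 3 replication genes higher than AL NK cells. Of the 40 genes 38 had a log2 fold change above 0, with a median of 0.74. An unadjusted p under 0.05 was found for 23, a share not computed for all genes. After adjustment 3 were called higher, where 2.58% of all genes were called, 1.01% higher and 1.57% lower. The 3 were Ccne2 at 1.73 ± 0.42 (adjusted p = 0.0206), Mcm5 at 0.97 ± 0.26 (adjusted p = 0.0401) and Rrm1 at 0.94 ± 0.23 (adjusted p = 0.0212). Rrm2 had 1.6 ± 0.46 (adjusted p = 0.0632) and Lig1 1.20 ± 0.35 (adjusted p = 0.0638). The count was 9 without BM NK replicate 3 and 0 without BM NK replicate 1 or BM NK replicate 2. Over all genes, calls in either direction were 343, 243 and 168 in these fits, in that order, against 365 with all samples. AL NK cells had only 2 libraries, so that leaving out either left 1 sample in that group.

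AL 7R- ILC1s had lower levels than AL NK cells for Rrm2 (-2.60 ± 0.49, adjusted p = 0.000201), Pola1 (-1.34 ± 0.25, adjusted p = 0.000195), Mcm3 (-0.81 ± 0.27, adjusted p = 0.0338) and Pold1 (-0.56 ± 0.16, adjusted p = 0.0130). These 4 of 40 were called lower, where 20.4% of all genes were called, 10.5% lower and 9.94% higher. The share called lower among the replication genes, 10%, was thus close to that among all genes, and none was called higher. The median over the 40 was -0.49, against 0.01 over all genes, and 36 of 40 were below 0. Rrm2 and Pola1 kept their calls without any 1 sample. Mcm3 lost its call without 7R- replicate 2 or 4 or either AL NK library (adjusted p up to 0.187), and Pold1 without AL NK replicate 1 (-0.49, adjusted p = 0.161).

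Between the ILC1 subsets of adult liver, AL 7R+ ILC1s had higher levels than AL 7R- ILC1s of Rrm2 (2.42 ± 0.45, adjusted p = 0.000753) and Pola1 (1.05 ± 0.23, adjusted p = 0.00391) and a lower level of Rpa2 (-0.85 ± 0.14, adjusted p = 0.000205). The other 37 did not pass; 5.28% of all genes were called, 3.06% higher and 2.22% lower. The samples of the 2 groups did not overlap for these 3 genes, as the values above show, and the calls held without each sample in turn. The median over the 40 genes was 0.17.

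BM iILC1s and AL 7R+ ILC1s both had Il7r transcripts, at 1117 and 541 CPM in the mean. By edgeR's quasi-likelihood test 0 of the 40 replication genes were called between them. Of all genes 8.06% were called, 4.23% higher in BM iILC1s and 3.84% lower. An unadjusted p under 0.05 was found for 3 of the 40, a share not computed for all genes. DESeq2 also called 0 of the 40. The log2 fold changes ran from -0.55 to 0.74, with a median of 0.05. The test of whether the ILC1 to NK difference itself differed between organs, taken as BM iILC1s over BM NK cells minus AL 7R+ ILC1s over AL NK cells, called 0 of the 40 (3.09% of all genes called, 1.74% higher and 1.35% lower). Of these 40 differences 38 were below 0, with a median of -0.60. An unadjusted p under 0.05 was found for 9, again with no share over all genes computed. Rrm2 had -2.09 ± 0.62 (adjusted p = 0.0669), Rrm1 -1.01 ± 0.30 (adjusted p = 0.0736) and Ccne2 -1.81 ± 0.55 (adjusted p = 0.0758), and DESeq2 called 2 genes lower. Without BM NK replicate 3 the count was 5, where 405 of all 14102 genes were called in either direction, against 437 with all samples.

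LPL ILC1s differed from AL 7R+ ILC1s in 8 replication genes, in a comparison that called 51% of all genes, 24.8% higher and 26.2% lower, more than among the 40. The 6 higher were Orc1 (2.57 ± 0.45, adjusted p = 2.88e-05), Pcna (1.78 ± 0.18, adjusted p = 5.14e-09), Mcm3 (0.89 ± 0.25, adjusted p = 0.00427), Orc6 (0.71 ± 0.19, adjusted p = 0.00343), Rpa2 (0.41) and Mcm4 (0.38). The 2 lower were Pola1 (-0.88 ± 0.23, adjusted p = 0.00247) and Cdt1 (-0.49 ± 0.17, adjusted p = 0.0219). Orc1, Pcna, Mcm3, Orc6 and Pola1 were called without each sample in turn. Mcm4 was lost in 5 of 7 such fits (adjusted p up to 0.175), Cdt1 in 4 of 7 (up to 0.0984) and Rpa2 in 2 of 7 (up to 0.114). Mcm2, Mcm5 and Mcm6, of the same ring as Mcm3 and Mcm4, had -0.20, -0.16 and -0.17 and did not pass, nor did Rrm2 (0.33) or Cdc6 (0.16). Markers of other lymphoid cells moved with this comparison. All 5 ILC2 and ILC3 markers reached 1 CPM in LPL ILC1s, against 2 in AL 7R+ ILC1s, with a summed level of 492 to 741 CPM in LPL ILC1s, against 243 to 256 CPM in AL 7R+ ILC1s. Gata3 made up most of these sums, at 438 and 243 CPM in the mean, and was also at 197 CPM in AL NK cells. Il22, a cytokine of ILC3s, was at 156, 192, 22.9 and 53.2 CPM in LPL ILC1s, against 0, 0 and 0.115 CPM in AL 7R+ ILC1s, and the receptor gene Il23r averaged 20.6 CPM in LPL ILC1s, against 0.0768 CPM in AL 7R+ ILC1s. Kit was at 595 to 728 CPM in LPL ILC1s, against 25.2 to 52.1 CPM in AL 7R+ ILC1s. The 6 T cell markers summed to 321 to 346 CPM in LPL ILC1s, against 90.6 to 98.9 CPM in AL 7R+ ILC1s. Cd28 made up most of these sums, at 322 and 86.8 CPM in the mean, and was also at 81.4 CPM in AL NK cells. Of the 6 markers 5 reached 1 CPM in LPL ILC1s, against 2 in AL 7R+ ILC1s and 1 in AL NK cells. The part of other lymphoid cells in the gut differences was not tested.

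SG G1-ILCs differed from AL 7R- ILC1s in 8 genes, 7 higher (17.5%) and 1 lower (2.5%). Of all genes 32.4% were called, 17.8% higher and 14.6% lower. The share called higher among the replication genes was thus close to that among all genes, and the share called lower was below it. E2f1 (2.92 ± 0.74, adjusted p = 0.00312), Rrm2 (2.41 ± 0.50, adjusted p = 0.000471), Lig1 (1.79 ± 0.32, adjusted p = 8.10e-05), Ccne2 (1.76 ± 0.38, adjusted p = 0.000619), Pola1 (0.74), Rrm1 (0.60) and Orc6 (0.56) were higher and Rpa2 (-0.98 ± 0.17, adjusted p = 4.67e-05) was lower. The 6 MCM genes ranged only from -0.23 to 0.23. Rrm2, Lig1, Ccne2 and Rpa2 kept their calls without each sample in turn, E2f1 lost its call without SG replicate 1 (2.28, adjusted p = 0.0863), and Pola1 lost it in 3 of 6 fits, down to 0.27 without SG replicate 1 (adjusted p = 0.659). Rrm1 and Orc6 were each called in 1 of 6 such fits, with adjusted p up to 0.264 and 0.220. The myeloid marker sum was 926 and 1007 CPM in SG G1-ILCs, against 13.4 to 46.5 CPM in AL 7R- ILC1s, with Cd14 the highest at 269 CPM, and its part in these differences was not tested.

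Other genes of the pathway, 47 in a separate list, were mostly higher in FL G1-ILCs too, with more exceptions. Against AL 7R- ILC1s, FL G1-ILCs were higher for 37 of 47 and lower for 1, with a median log2 fold change of 1.49, where 22.4% of all genes were higher and 20.1% lower. Against AL NK cells 37 were higher and 2 lower (19.8% and 16.6% of all genes), and against BM NK cells 34 were higher and 0 lower (19.4% and 14.3% of all genes). The largest in the first of these were the E2F repressors E2f7 (5.68) and E2f8 (5.67), the origin firing factor Ticrr (5.66), the activator E2f2 (5.19), the checkpoint adaptor Clspn (5.03) and Uhrf1 (5.05), which reads hemimethylated DNA. The licensing inhibitor Gmnn was at 165, 155 and 146 CPM in FL G1-ILCs, against 21.1, 18, 28.9 and 17.6 CPM in AL 7R- ILC1s. The gene that was lower was Rrm2b (-1.02 ± 0.25, adjusted p = 0.00149), the subunit of ribonucleotide reductase used outside S phase, and it ran opposite to Rrm2 in this comparison.

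In the other comparisons fewer genes of the pathway list were called. BM iILC1s were lower than BM NK cells for 16 of 47, where 5.55% of all genes were lower, led by E2f8 (-3.11), E2f2 (-3.06) and E2f7 (-3.05). BM NK cells were higher than AL NK cells for 4 (Uhrf1, E2f2, Tk1 and Dut) and lower for 1 (Cdkn1a), where 1.01% of all genes were higher and 1.57% lower. AL 7R- ILC1s were higher than AL NK cells for 2 (4.26%, against 9.94% of all genes) and lower for 5 (10.6%, against 10.5%), and AL 7R+ ILC1s were higher than AL 7R- ILC1s for 1, E2f3 (1.80), where 3.06% of all genes were higher. BM iILC1s were higher than AL 7R+ ILC1s for 2 (4.26%, against 4.23% of all genes) and lower for 1 (2.13%, against 3.84%). LPL ILC1s were higher than AL 7R+ ILC1s for 10 (21.3%, against 24.8% of all genes) and lower for 8 (17%, against 26.2%), and SG G1-ILCs were higher than AL 7R- ILC1s for 7 (14.9%, against 17.8%) and lower for 6 (12.8%, against 14.6%). In the gut and the gland the shares of the pathway list were thus not above those of all genes, and in the gland they were close to them. Cdkn1a, the CDK inhibitor p21, was at 472, 619, 527 and 566 CPM in LPL ILC1s, against 1.44, 0.883 and 2.65 CPM in AL 7R+ ILC1s, and at 157 and 184 CPM in SG G1-ILCs, against 1.24, 1.18, 1.30 and 0.754 CPM in AL 7R- ILC1s. LPL ILC1s and SG G1-ILCs thus had far more Cdkn1a, with log2 fold changes of 8.19 ± 0.31 (adjusted p = 1.41e-17) and 7.18 ± 0.31 (adjusted p = 5.10e-16), in the same libraries in which Pcna and Orc1 (gut) or Lig1 and E2f1 (gland) were high.

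A list of 12 genes of mitosis and proliferation, such as Mki67, Top2a, Cdk1 and Plk1, was set beside the replication genes. All 12 were higher in FL G1-ILCs than in the adult groups tested, AL 7R- ILC1s (median log2 fold change 6.33; 22.4% of all genes higher), AL NK cells (4.01; 19.8%) and BM NK cells (1.91; 19.4%). In each of these the median was larger than that of the 40 replication genes (2.60, 2.27 and 1.55). All 12 were lower in BM iILC1s than in BM NK cells (median -2.36), where 5.55% of all genes were lower. In AL 7R- ILC1s relative to AL NK cells 9 of 12 were lower (median -1.93), where 10.5% of all genes were, and in BM NK cells 6 of 12 were higher than in AL NK cells (median 2.02), where 1.01% of all genes were. Mki67 was at 796, 701 and 772 CPM in FL G1-ILCs, against 186, 265 and 95.1 CPM in BM NK cells, 10.7, 24.1 and 36.5 CPM in AL 7R+ ILC1s, 11.2, 1.01, 18.7 and 6.28 CPM in AL 7R- ILC1s and 25.3 and 44.8 CPM in AL NK cells. As with the replication genes, BM NK replicate 3 was lowest of its group, and AL 7R- ILC1s were low.

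Among the 21 adult samples the replication genes varied together to differing degrees. The correlation of each gene's log2 CPM with the mean of the other 39 ran from 0.24 to 0.90, with a median of 0.75, a description over samples that share organs, gates and libraries. It was over 0.8 for 14 genes, with Tyms (0.90), Pole (0.89), Mcm3 (0.88) and Mcm2 (0.87) at the top. It was under 0.3 for 4: Gins3 (0.24), Pcna (0.24), Rpa2 (0.26) and Orc1 (0.28). Of these, Pcna and Orc1 were high in LPL ILC1s, Rpa2 was highest in AL 7R- ILC1s and Gins3 was listed at 0 in LPL replicate 4. Of all other genes tested, the 10 most like the mean of the 40 were Cks1b (r = 0.91), Kif22 (0.90), Cdk1 (0.90), Cit (0.90), Asf1b (0.90), Pclaf (0.89), Hist1h2ag (0.89), Gm11223 (0.89), Ska1 (0.89) and Ezh2 (0.89), and 7 of the 10 remained with a prior count of 0.5 in place of 2. The median log2 fold change of FL G1-ILCs against AL 7R- ILC1s was 2.43 for the 12 genes whose promoters hold E2F letters and 2.87 for the 20 without.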

How the data were processed

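Reads of SMART-seq HT libraries were trimmed with fastp 0.23.0, aligned to mm10 with HISAT2 2.1.0 and counted per gene with featureCounts of Subread 1.6.5 by the authors, who deposited raw counts. The annotation and the settings for strand and multimapping reads are not given in the sources used here. Names and positions came from GENCODE vM21; 935 identifiers without a match held 0.104% of the counts. Scaling was by TMM (edgeR 4.0.16, R 4.3.3); genes were filtered by filterByExpr (minimum count 10) and fitted in a single quasi-likelihood model of 8 groups and 24 samples. Calls are at a Benjamini-Hochberg adjusted p under 0.05 over 14123 genes. The study used DESeq2, run here (1.42.0) as an alternative. The procedure was run on simulated data in which few genes differed, and in FL G1-ILCs only. In the real FL G1-ILCs against AL 7R- ILC1s comparison 42.6% of genes were called, so that the simulation cannot judge the scaling there. The symbols of the members and lists were chosen with earlier results of these data known; finding them in the table used no values. Any member may be named; values in every sample are given for 13 fixed genes and the 3 with the largest and smallest fetal change, and Orc1, Mcm6, Gmnn, Cdkn1a and Mki67 were added after their values were seen. The study calls its replicates biological but gives no animals, so that p-values measure the spread between these libraries. Alternatives were RLE factors, DESeq2, no filter or a stricter one (CPM of 5 in 3 samples), a replicate block, only the groups compared, all 25 libraries, counts thinned to 3752189, a log2 fold change over 1, and each sample left out.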

Additional observations from a re-analysis of the deposited data

Results flagged for a closer look

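Among 80 groups of 4 samples (40 genes in AL 7R- ILC1s and LPL ILC1s), 7 had a sample far from the others, where chance gives about 1 in 20. In LPL ILC1s all 3 were replicate 4: Orc1 was 21.6 CPM there, against 13.7 to 14.3 CPM in the other libraries, Pola2 was 65.7 CPM, against 37.1 to 41.4 CPM, and Gins3 was 0.0 CPM, against 9.62 to 11.2 CPM. In AL 7R- ILC1s, replicate 4 had 6.03 CPM of Orc1, against 3.48 to 3.88 CPM, and 4.77 CPM of Ccne1, against 5.93 to 6.07 CPM. Replicate 1 of AL 7R- ILC1s had 37.3 CPM of Rfc4, against 30.2 to 31.2 CPM, and replicate 3 had 6.22 CPM of E2f1, against 0.169 to 0.754 CPM.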

How the results depend on the processing

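Single genes were followed under the alternatives only in comparisons where the main fit had called them. Gins4 against AL NK cells and E2f1 against BM NK cells, both uncalled in FL G1-ILCs, were added. Of these tests 2411 kept their direction and side of the threshold, 190 were no longer called and 1 was newly called. New calls of other members are not in this tally and enter only the counts of members below. The direction turned once: E2f1 in FL G1-ILCs against BM NK cells was -0.14 (adjusted p = 0.916) without FL replicate 1, and ran from -0.14 to 0.90 over the samples left out. With no filter on low counts, 12 members were lower in AL 7R- ILC1s than AL NK cells (4 with it), 15 were higher in BM NK cells than in AL NK cells (3), 1 was lower in BM iILC1s than in AL 7R+ ILC1s (0), 3 and 6 were higher and lower in LPL ILC1s than in AL 7R+ ILC1s (6 and 2), and 7 were lower in the marrow minus liver difference (0). Without the filter, calls over all 41474 genes, in either direction, were 2520, 494, 1164, 7006 and 541 in these comparisons, in that order. With only the groups compared, the counts were 7 for AL 7R- ILC1s below AL NK cells, 11 for BM NK cells above AL NK cells and 1 for LPL ILC1s below AL 7R+ ILC1s. Calls over all genes, in either direction, were 2717 of 12007, 657 of 11973 and 5817 of 11592 in these comparisons. DESeq2 gave 5 for BM NK cells above AL NK cells and 2 for the marrow minus liver difference. Over all genes it called 622 of 11383 and 590 of 12752 there, in either direction. With a log2 fold change over 1 required, 2 were left for AL 7R- ILC1s below AL NK cells, 0 for AL 7R+ ILC1s below AL 7R- ILC1s, 16 for BM iILC1s below BM NK cells, 1 for BM NK cells above AL NK cells, 2 and 0 for LPL ILC1s and 4 and 0 for SG G1-ILCs. Of all 14123 genes 1599, 396, 1029, 162, 4271 and 2684 were left in these comparisons, in that order and in either direction. The cause of the changed counts was not tested, apart from the fewer genes or samples that an alternative itself uses. Fits with a sample left out also called fewer of all genes, in either direction. For FL G1-ILCs against AL 7R- ILC1s there were 5166 to 5714, against 6013 with all samples. For FL G1-ILCs against BM NK cells there were 3854 to 4291, against 4762. For LPL ILC1s against AL 7R+ ILC1s there were 6429 to 6917, against 7204. Leaving out each sample in turn gave 40 to 40 members higher in FL G1-ILCs than AL 7R- ILC1s, 34 to 39 against AL NK cells and 35 to 38 against BM NK cells. It gave 9 to 31 lower in BM iILC1s than in BM NK cells, 0 to 9 higher in BM NK cells than in AL NK cells, 3 to 5 lower in AL 7R- ILC1s than AL NK cells, 2 to 3 higher and 1 to 2 lower in AL 7R+ ILC1s than AL 7R- ILC1s, and 0 to 1 higher in BM iILC1s than in AL 7R+ ILC1s. For LPL ILC1s it gave 4 to 8 higher and 1 to 3 lower, for SG G1-ILCs 3 to 6 higher and 1 to 2 lower, and for the marrow minus liver difference 0 to 5 lower. Replicate numbers did not pair the samples (mean correlation -0.00619 for the same number and 0.00236 for others, and 3 of 24 samples correlated best with their own number). With the replicate block the counts were 40, 39 and 39 in the fetal comparisons, 26 lower in BM iILC1s than in BM NK cells, 7 and 2 for LPL ILC1s and 5 and 1 for SG G1-ILCs. Calls over all genes were 5784, 4860, 4402, 1641, 6885 and 4339 in these comparisons, in that order and in either direction. The median of all genes moved by less than 0.1 under RLE size factors in each comparison, but with no filter it was 0.48 in LPL ILC1s against AL 7R+ ILC1s, against -0.02 with it, a shift of 0.50 in the comparison whose counts turned to 3 and 6; no other alternative moved it by over 0.1. Depth limits Fen1 (3 to 49 reads per sample) and E2f1 in AL 7R- ILC1s (1 to 43 reads).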
